A study of Mus musculus with 24 samples.

Results

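The 33 genes described here encode enzymes of cholesterol and fatty acid synthesis and the proteins that control these pathways or dispose of sterol, out of 54432 genes in the deposited tables. They were taken by name: 7 enzymes that lead from acetyl-CoA to farnesyl diphosphate (the mevalonate pathway), 11 that lead on through squalene to cholesterol, 5 proteins of the SREBP switch, 3 that carry, esterify or export sterol, and 7 of fatty acid synthesis and its supply. All 33 were found by Ensembl identifier and all 33 passed the filter on low counts. A mean of at least 5 CPM (counts scaled to a common library size) in a group was reached by 32 of them, the exception being Abca1.

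RNA was sequenced from mpkCCD cells, immortalised epithelial cells of the mouse cortical collecting duct. The line is labelled C57BL/6, wild type and passage 10 to 11. Everything below comes from this 1 line. After 6 days on filters and 24 h in minimal medium the basolateral chamber received either vehicle or dDAVP, a vasopressin analogue that acts on the V2 receptor, and cells were taken at 3, 6, 12 and 24 h. Each of the 8 groups held 3 libraries, 24 in all, with 17.25 M to 27.64 M estimated counts. Whether the 3 libraries of a group came from separate cultures is not stated, so the p-values speak only of the spread among libraries, which may be technical. In such bulk RNA, fewer cells of a type and less RNA per cell cannot be told apart.

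Cells make cholesterol from acetyl-CoA through mevalonate, farnesyl diphosphate and squalene, and make fatty acids from the same precursor, which the cytosol obtains from citrate. Genes of both routes are activated by the SREBP transcription factors, which reach the nucleus only after SCAP has escorted them from the endoplasmic reticulum to the Golgi. When sterol is plentiful the INSIG proteins hold SCAP back, synthesis genes are turned down, and surplus cholesterol is esterified by SOAT1 or exported by ABCA1. In the collecting duct, the cholesterol of the apical membrane and of vesicles is part of the setting in which vasopressin moves the water channel AQP2.

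Promoters of 27 members were found in RefSeq (GRCm38.p6), each running from 250 bases before to 50 after a listed start site. Scd1, Fdps, Stard4, Fdft1, Sqle and Scd2 had no entry. Both strands were searched for the core of a sterol regulatory element (TCACNCCAC, where N is any base), the CCAAT box bound by NF-Y, a partner of SREBP (CCAAT), and the cAMP response element through which vasopressin signalling can reach a promoter (TGACGTCA). A CCAAT box was present in 22 of the 27 members (81.5%), against 41.1% of 27025 genes with a promoter and 43.6% of the 9408 of them with at least 5 CPM here. The sterol core was found in 1 member, Hmgcs1 (3.7%, against 1.44% of genes and 1.32% of those of at least 5 CPM). The full 8-base cAMP element was found in 0 of 27 (against 2.03% and 3.62%). Shorter forms of the cAMP element were not searched. Given here are the promoters of the 3 members whose mean dDAVP effect kept its call over all analyses, and that of Hmgcs1, the synthase that makes HMG-CoA, since it carried the sterol core. They read 5′ to 3′ on the gene's strand, with matches in capitals (ATTGG is CCAAT on the other strand). They lie at chr1:156474279-156474578 for Soat1 (minus strand), chr1:65186430-65186729 for Idh1 (minus strand, 1 of its listed starts), chr3:129532136-129532435 for Elovl6 (plus strand) and chr13:119690101-119690400 for Hmgcs1 (plus strand).
Soat1: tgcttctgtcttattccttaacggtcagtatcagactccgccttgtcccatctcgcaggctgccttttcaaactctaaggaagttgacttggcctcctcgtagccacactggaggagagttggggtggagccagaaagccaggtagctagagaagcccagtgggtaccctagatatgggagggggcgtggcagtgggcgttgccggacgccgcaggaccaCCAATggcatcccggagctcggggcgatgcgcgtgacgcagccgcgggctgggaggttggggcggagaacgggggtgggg
Idh1: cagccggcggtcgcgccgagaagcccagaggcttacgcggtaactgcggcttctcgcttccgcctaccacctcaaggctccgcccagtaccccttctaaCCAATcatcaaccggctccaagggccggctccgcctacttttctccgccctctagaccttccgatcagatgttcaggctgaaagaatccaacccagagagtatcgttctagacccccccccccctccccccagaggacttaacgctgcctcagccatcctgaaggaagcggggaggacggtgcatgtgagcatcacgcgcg
Elovl6: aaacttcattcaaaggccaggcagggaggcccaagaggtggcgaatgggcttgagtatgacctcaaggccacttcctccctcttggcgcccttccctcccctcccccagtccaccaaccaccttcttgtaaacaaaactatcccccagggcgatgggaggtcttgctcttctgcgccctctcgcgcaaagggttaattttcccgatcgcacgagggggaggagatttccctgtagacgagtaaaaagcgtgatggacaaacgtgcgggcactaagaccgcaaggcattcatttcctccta
Hmgcs1: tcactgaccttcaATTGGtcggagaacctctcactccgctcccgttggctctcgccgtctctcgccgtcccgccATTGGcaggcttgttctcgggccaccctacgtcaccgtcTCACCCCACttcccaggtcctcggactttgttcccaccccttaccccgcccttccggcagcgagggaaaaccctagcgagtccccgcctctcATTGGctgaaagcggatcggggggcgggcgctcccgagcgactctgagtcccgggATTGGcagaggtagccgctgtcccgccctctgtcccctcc

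The CCAAT box of Soat1 began 30 bases before the start site and that of Idh1 151 bases before it. Elovl6 held none of the 3 motifs in this window. Hmgcs1 held 4 CCAAT boxes, the nearest upstream ones 45 and 176 bases before the start, and its sterol core began 137 bases before it. These are matches of letters, and no binding was measured.

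The libraries were checked before the members were compared. Aqp2 had group means of 2.46 to 3.47 TPM (a level per transcript length, scaled to a common library total) with vehicle and 57.7 to 94.6 TPM with dDAVP. Of the marker genes, 5 of 5 for epithelium and 8 of 10 for collecting duct principal cells had a median of at least 1 TPM, while 1 of 6 for intercalated cells, 1 of 5 for proximal tubule, 1 of 4 for leukocytes, and 0 of 4 each for adipocytes, hepatocytes and fibroblasts did. Olfactory and vomeronasal receptor genes, 1459 in all, are not known markers of this epithelium. Their share of the counts ranged from 0.135% to 0.901% of a library, and its mean was lower with dDAVP at each time. The means were 0.374% against 0.629% at 3 h and 0.196% against 0.526% at 6 h. They were 0.335% against 0.477% at 12 h and 0.201% against 0.226% at 24 h. The libraries overlapped at all times but 6 h. The choice of analysis also mattered. With TMM, a scaling of libraries that assumes most genes do not change, the 6 h median over genes of at least 5 CPM was a log2 fold change of 0.32 by edgeR, and it was -0.20 by limma on log2(TPM + 1). These analyses differ in input and model as well as in scaling. On the same counts and model, edgeR with plain library totals gave a median of -0.05 over those genes. Fitted to genes of at least 5 CPM only, edgeR with TMM gave 0.01. Why these medians differ was not tested. Values from edgeR with TMM and from limma are given for the members and counts whose direction differed.

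All 33 members were detected in every library, at levels that spanned the whole pathway. Fdps, which makes farnesyl diphosphate, had the highest median over the 24 libraries at 214 TPM. It was followed by the desaturase Scd2 at 100, the methylsterol oxidase Msmo1 at 91 and Acat2, whose enzyme joins acetyl-CoA units at the start of the route, at 52.7 TPM. The regulators Srebf2 and Srebf1 had medians of 47.1 and 31.9 TPM, and Insig1 22.8 TPM against 12.2 TPM for Insig2. Lowest were acetyl-CoA carboxylase Acaca at 4.62, the sterol reductase Hsd17b7 at 2.49 and the cholesterol exporter Abca1 at 0.0493 TPM. Summed over the members, the level was 1191 ± 14.4 TPM (SD, n = 3) with vehicle and 1183 ± 76.2 TPM with dDAVP at 3 h. It was 1094 ± 26.2 against 1021 ± 85.7 TPM at 6 h, 991 ± 19.8 against 1033 ± 64.9 TPM at 12 h, and 1022 ± 39.6 against 1044 ± 25.4 TPM at 24 h, with overlapping libraries each time.

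The clearest dDAVP response among the members lay outside sterol synthesis itself. Soat1, which esterifies cholesterol for storage in droplets, was 2.7-fold higher at 3 h and 2.66-fold higher at 6 h by edgeR, and Idh1, the cytosolic isocitrate dehydrogenase that supplies NADPH, was higher in all dDAVP libraries at all 4 times. Elovl6, which elongates palmitate towards stearate, was slightly higher when the 4 times were averaged. No other member kept its direction and its call over every analysis tried for the mean effect.

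At 3 h Soat1 stood at 22.4, 17.6 and 13.8 TPM in vehicle replicates 1 to 3 and at 35.9, 37.6 and 42.3 TPM with dDAVP. The lowest dDAVP library was well above the highest vehicle library. At 6 h the values were 13.9, 13.2 and 13.5 TPM against 28.8, 28.1 and 27.6 TPM, again without overlap and with little spread. In edgeR's quasi-likelihood test (p adjusted by Benjamini-Hochberg) the log2 fold change was 1.43 ± 0.126 (SE, adjusted p = 9.53e-08) at 3 h and 1.41 ± 0.127 (adjusted p = 1.18e-07) at 6 h. Over 16 alternative analyses the value stayed between 1.08 and 1.55 at 3 h and between 1.00 and 1.52 at 6 h, and the call was kept in each.

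The Soat1 response was smaller at the later times. At 12 h vehicle gave 15.4, 14.2 and 18.7 TPM and dDAVP 23.4, 19.1 and 18.5 TPM, so that the groups overlapped. At 24 h vehicle gave 16, 14.1 and 16.9 TPM and dDAVP 23.2, 23.8 and 17.9 TPM, without overlap. The log2 fold change was 0.46 ± 0.125 at 12 h (edgeR adjusted p = 0.559) and 0.66 ± 0.125 at 24 h (adjusted p = 0.0246), and the test of a dependence on time passed (adjusted p = 0.0208), as it did for 0.343% of genes tested. Its 24 h effect less its 3 h effect came to -0.77 (log2). The call at 24 h was lost when any 1 of its 6 libraries was left out (adjusted p 0.053 to 0.37) and in 11 of 16 alternatives in all, and the call of time dependence in 18 of 33. The latter was kept without any 1 vehicle library of 3 or 12 h, without vehicle 6 h replicate 1 and without dDAVP replicate 1 of 3 or 24 h, and was lost without any 1 of the other 15 libraries (adjusted p 0.0527 to 0.14). Within the dDAVP cells alone, Soat1 fell from 3 to 24 h by 0.55 on the log2 scale (SE 0.124, adjusted p = 0.0233). That call was lost without dDAVP 3 h replicate 2 or 3 or without dDAVP 24 h replicate 1 or 3 (adjusted p 0.0798, 0.152, 0.131 and 0.133). Soat1 lies at chromosome 1, 156424525 to 156474331 (minus strand), and a gene model on the opposite strand, Gm37648, overlaps it. The strand setting of the counting is not given in the sources used here.

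Idh1 (chromosome 1, 65158616 to 65186500, minus strand) was apart between the groups throughout. Vehicle replicates 1 to 3 had 19.1, 17.4 and 18.3 TPM (3 h), 16.5, 16.2 and 14.9 TPM (6 h), 14.5, 14.5 and 14.9 TPM (12 h), then 15.6, 14.4 and 16 TPM (24 h). With dDAVP they had 20.7, 22.7 and 21.5 TPM (3 h), 23.1, 20.5 and 20.9 TPM (6 h), 23.2, 21.9 and 18 TPM (12 h), then 21, 24.7 and 20.7 TPM (24 h). All dDAVP libraries lay above all vehicle libraries at each of the 4 times, as held for 31 of 13123 genes of at least 5 CPM (0.236%). The log2 fold change by edgeR was 0.59 ± 0.127 (adjusted p = 0.0242) at 3 h, 0.97 ± 0.128 (adjusted p = 5.44e-05) at 6 h, 0.61 ± 0.128 (adjusted p = 0.0655) at 12 h and 0.59 ± 0.127 (adjusted p = 0.0961) at 24 h, with no call of time dependence (adjusted p = 0.66). Some other analyses did call Idh1 at 12 and 24 h. Limma on log2(TPM + 1) gave 0.49 (adjusted p = 0.0151) and 0.50 (adjusted p = 0.0115). Fitted to genes of at least 5 CPM only, edgeR with TMM gave 0.58 (adjusted p = 4.76e-05) and 0.57 (adjusted p = 4.73e-05). With RLE size factors the values were 0.65 and 0.64, without a call at either time. For 3 h the call was lost in 10 of 16 alternatives, among them the fits without vehicle 3 h replicate 1 or 2 and without dDAVP 3 h replicate 2 or 3 (adjusted p 0.305, 0.176, 0.291 and 0.428). For 6 h it was kept in 16 of 16, at 0.42 to 1.08.

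Elovl6 (chromosome 3, 129532355 to 129638495, plus strand, overlapped by the gene models Gm43072 and Gm35986) differed by less. Vehicle libraries had 21.3, 20.7 and 18.6 TPM (3 h), 19.5, 17.8 and 18 TPM (6 h), 17.6, 16.8 and 18.2 TPM (12 h), then 16.7, 15.8 and 18 TPM (24 h). The dDAVP libraries had 20.8, 22.9 and 24.4 TPM (3 h), 20.1, 17.6 and 16.9 TPM (6 h), 19.6, 21.5 and 19.6 TPM (12 h), then 20.1, 19.1 and 19.5 TPM (24 h). The groups overlapped at 3 and 6 h and were apart at 12 and 24 h. Averaged over the 4 times the log2 fold change was 0.40 ± 0.0618 (edgeR adjusted p = 0.000213), and 34 of 34 alternatives kept both sign and call, at 0.14 to 0.47. At 6 h alone it was 0.58 ± 0.124 (adjusted p = 0.0115) by edgeR with TMM and -0.02 by limma on log2(TPM + 1) (adjusted p = 0.839). That call was also lost without vehicle 6 h replicate 1 or 2 and without dDAVP 6 h replicate 1 or 2 (adjusted p 0.0538, 0.0775, 0.0818 and 0.123).

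**Figure D1:**
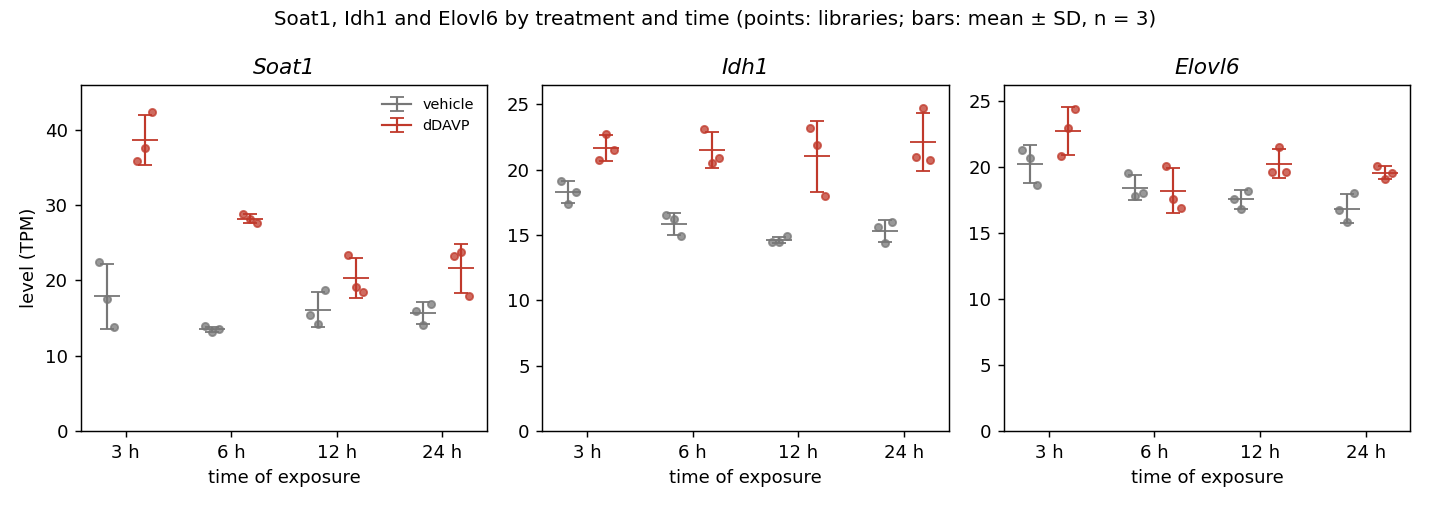
Levels of Soat1, Idh1 and Elovl6 in TPM (vertical axis, from 0) by time of exposure, 1 point for each library, with the mean and SD of the 3 libraries of each group. The dDAVP libraries of Soat1 lie at 35.9 to 42.3 TPM at 3 h and come down towards vehicle by 12 h, those of Idh1 stay above vehicle at all 4 times, and those of Elovl6 overlap vehicle at 3 and 6 h, its 6 h difference being 0.58 by edgeR with TMM and -0.02 by limma on log2(TPM + 1).

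To compare the members free of library scaling, each was set against the mean log2 TPM of the 18 sterol enzymes in the same library. That mean was 4.75 ± 0.04 (SD, n = 3) with vehicle and 4.69 ± 0.11 with dDAVP at 3 h. It was 4.64 ± 0.04 against 4.47 ± 0.11 at 6 h, and 4.43 ± 0.07 against 4.45 ± 0.10 at 12 h. At 24 h it was 4.50 with either treatment. Each difference below therefore also holds the change of that mean. Soat1 moved from -0.62 ± 0.31 (SD, n = 3) with vehicle to 0.58 ± 0.19 with dDAVP at 3 h, a log2 difference of 1.19, and differed by 1.23 at 6 h, 0.32 at 12 h and 0.46 at 24 h. Idh1 differed by 0.31, 0.61, 0.49 and 0.53 at the 4 times, without overlap of the libraries at any of them. Elovl6 differed by 0.23, 0.15, 0.19 and 0.23, with the groups overlapping at 12 h only. Apart from Soat1, Idh1 and Elovl6, the extremes were Acaca, lower by -0.30 at 3 h and -0.33 at 6 h, and Srebf1, higher by 0.30 at 6 h. Acaca and Srebf1 were singled out after their values were seen. The differences of the sterol enzymes lay between -0.27 and 0.18 over the 4 times. As their own mean was the reference, these differences cancel on average by construction. No such range was taken for other genes.

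**Figure D2:**
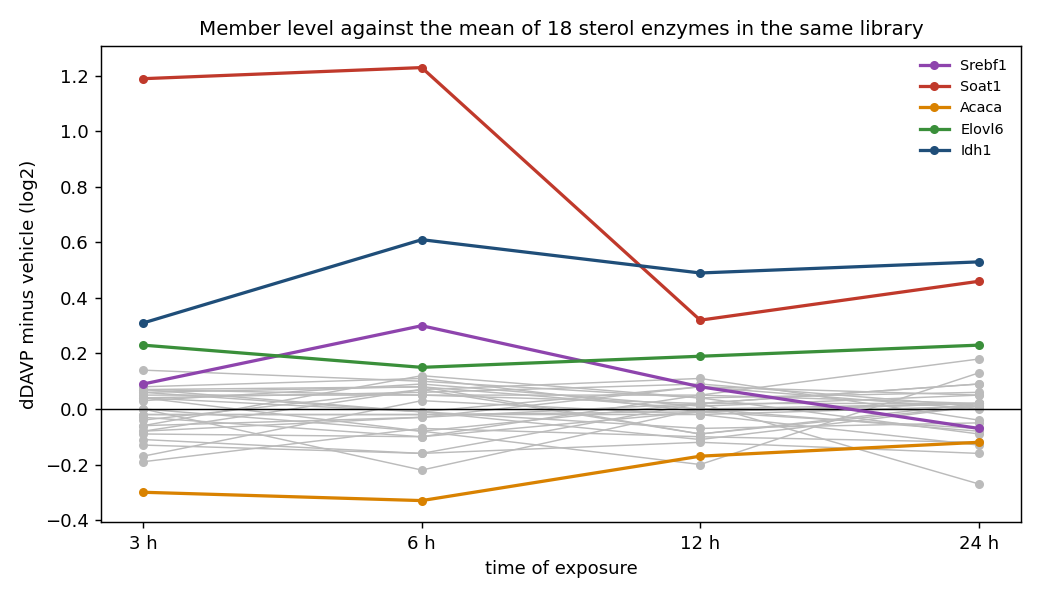
Difference between dDAVP and vehicle (mean of 3 libraries each, log2) of each member's level set against the mean of the 18 sterol enzymes in the same library, by time of exposure, with 5 members coloured and 27 in grey (Abca1 is left out). Soat1 starts at 1.19 and 1.23 and drops to 0.32, Idh1 holds between 0.31 and 0.61, and the grey lines stay between -0.27 and 0.18.

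For the enzymes of sterol synthesis, the sign of the dDAVP difference at 6 h depended on the analysis. At 3 h, 2 of 33 members were called by edgeR with TMM (Soat1 and Idh1, both higher), against 0.484% of all genes tested and 1.07% of those of at least 5 CPM. Leaving out vehicle 3 h replicate 1 or 2, or dDAVP 3 h replicate 2 or 3, left 1 call, and leaving out dDAVP 3 h replicate 1 gave 3. At 6 h, 24 members were called higher and 1 lower, beside 46.5% of genes of at least 5 CPM called higher and 12.5% called lower. The members' median log2 fold change of 0.39 stood beside 0.32 over those genes and -0.39 over all 29743 genes tested. On log2(TPM + 1) the same members had a median of -0.14, beside -0.20. There 2 were called higher (Soat1 and Idh1) and 3 lower (Acat2, Hmgcs1 and Scap), where 24.4% of genes of at least 5 CPM were called lower. With the receptor share as an edgeR covariate the members' median was 0.03 and 2 were called, beside 0.701% of genes of at least 5 CPM. At 6 h every dDAVP library had a lower share than every vehicle library, so that fit cannot fully part the share from the treatment. By edgeR with plain library totals the members' median was 0.02, beside -0.05 over genes of at least 5 CPM. Fitted to genes of at least 5 CPM only, edgeR with TMM called Soat1, Idh1, Elovl6, Srebf1 and Srebf2 higher and no member lower. Over all its 13123 genes that fit called 722 higher and 1778 lower. Measured from the median of genes of at least 5 CPM, 25 members lay above it at 6 h by edgeR with TMM, 23 by limma, 20 with the covariate and 25 with plain library totals. In the same order these counts were 28, 27, 24 and 28 (3 h), 26, 24, 24 and 26 (12 h), 26, 24, 25 and 26 (24 h), then 27, 28, 21 and 27 for the mean effect. Leaving out 1 of the 6 libraries of 6 h in turn left 2 calls (without replicate 1 or 2 of either treatment), 7 (without vehicle replicate 3) or 13 (without dDAVP replicate 3).

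In TPM, all dDAVP libraries lay above all vehicle libraries for 2 members at 3 h and 2 at 6 h (Soat1 and Idh1), for 4 members at 12 h (Fdps, Ebp, Elovl6 and Idh1) and for 3 members at 24 h (Soat1, Elovl6 and Idh1). Over genes of at least 5 CPM these shares were 1.86%, 1.71%, 2.72% and 2.71%. They lay below for 5 members at 3 h, 7 members at 6 h, and 0 at the later times, beside 25.7%, 49.9%, 5.26% and 8.42% of genes.

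Hmgcs1 shows the difference between the analyses. It had 35.5, 34 and 32.9 TPM with vehicle and 32.2, 27.3 and 25.8 TPM with dDAVP at 6 h, with all dDAVP libraries below all vehicle libraries. Its log2 fold change was -0.26 on log2(TPM + 1) (limma adjusted p = 0.0365) and 0.29 ± 0.131 by edgeR with TMM (adjusted p = 0.0777). Sqle, the epoxidase that acts on squalene, had 45.4, 42.8 and 45.2 TPM with vehicle and 42.9, 38.7 and 35.3 TPM with dDAVP at 6 h, the groups just overlapping, and its log2 fold change was -0.19 (adjusted p = 0.0523) by limma and 0.32 ± 0.13 (adjusted p = 0.0511) by edgeR. Cyp51, the sterol demethylase, had 30.6, 29.9 and 30.5 TPM against 32.4, 28.2 and 25.7 TPM with overlap, at -0.08 (adjusted p = 0.458) by limma and 0.46 ± 0.131 (adjusted p = 0.02) by edgeR, a call that was lost without any 1 of the 6 libraries but dDAVP 6 h replicate 3 (adjusted p 0.0503 to 0.154). Of the 7 mevalonate enzymes 5, and of the 11 that follow 8, were called higher by edgeR with TMM at 6 h, beside 46.5% of genes of at least 5 CPM. By limma 0 of 18 were called higher, beside 0.556%, and 2 lower (Acat2 and Hmgcs1), beside 24.4%. Fitted to genes of at least 5 CPM only, edgeR with TMM called 0 of 18 in either direction. It gave -0.02 for Hmgcs1 (adjusted p = 0.796), 0.02 for Sqle (adjusted p = 0.884) and 0.15 for Cyp51 (adjusted p = 0.092).

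Markers that these cells are not known for also differed between the groups at 6 h. The receptor share was 0.443% to 0.581% with vehicle and 0.135% to 0.276% with dDAVP. The summed level of the 4 adipocyte markers was 1.27 to 3.17 TPM with vehicle and 0.475 to 0.767 TPM with dDAVP, and that of the 4 hepatocyte markers 1.22 to 2.24 and 0.231 to 1.01 TPM. The 4 fibroblast markers summed to 2.87 to 3.84 TPM with vehicle and 0.575 to 1.53 TPM with dDAVP. The part of these markers in the members' values was not tested. Soat1 at 1.13 and Idh1 at 0.60 were called with the receptor share as covariate.

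**Figure D3:**
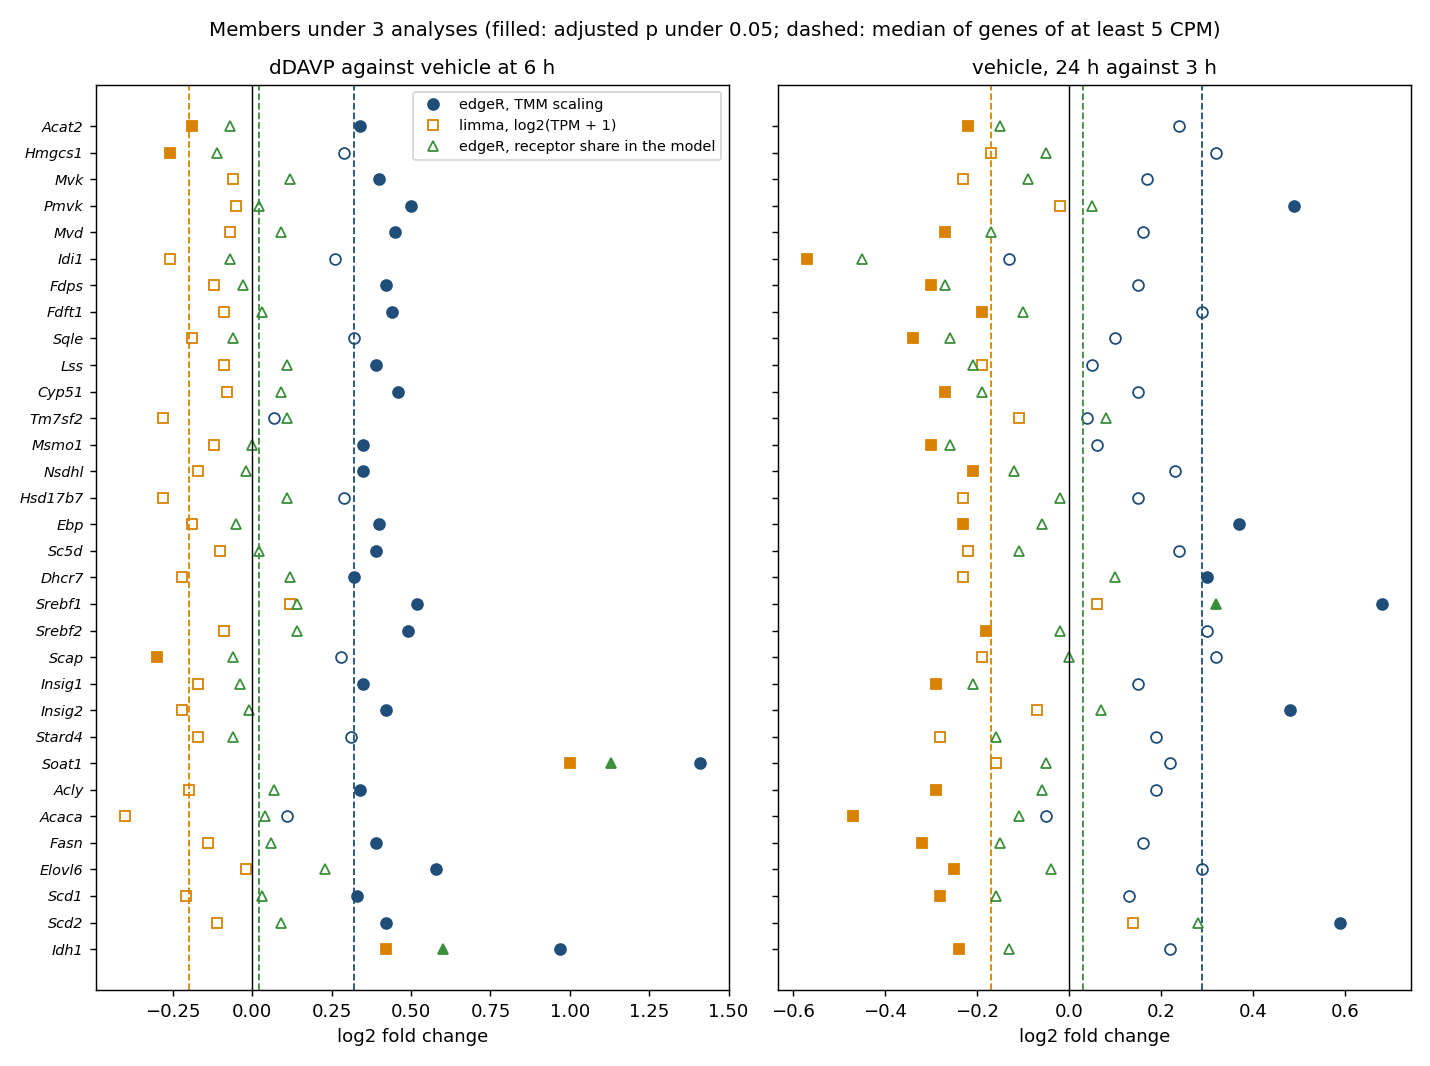
Log2 fold change (horizontal axis) of 32 members (Abca1 is left out) for dDAVP against vehicle at 6 h (left) and for vehicle at 24 h against 3 h (right), under the 3 analyses named in the key. Filled symbols have an adjusted p under 0.05 and dashed lines mark the median of genes of at least 5 CPM in each analysis. At 6 h most members sit near their dashed line, right of 0 by edgeR with TMM and left of 0 by limma, and Soat1 and Idh1 are filled in each of the 3.

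For the SREBP regulators, too, the calls at 6 h depended on the analysis. At 6 h Srebf1, which mainly drives fatty acid genes, had 29.3, 27.5 and 24.5 TPM with vehicle and 31.2, 29.8 and 27.6 TPM with dDAVP, and Srebf2, which mainly drives sterol genes, had 49.2, 45.5 and 44.4 against 47.2, 42.5 and 41.3 TPM. Both pairs of groups overlapped. By edgeR with TMM their log2 fold changes were 0.52 ± 0.127 (adjusted p = 0.0165) and 0.49 ± 0.124 (adjusted p = 0.0175), and by limma 0.12 (adjusted p = 0.189) and -0.09 (adjusted p = 0.307). Insig1, a target of SREBP as well as its brake, had 26.3, 22.9 and 24.7 against 23.5, 22.2 and 19.5 TPM, at 0.35 ± 0.129 (adjusted p = 0.0387) by edgeR and -0.17 (adjusted p = 0.0883) by limma. Scap had 13.6, 13.3 and 11.3 against 10.5, 10 and 9.77 TPM without overlap, at 0.28 ± 0.127 (adjusted p = 0.0745) by edgeR and -0.30 (adjusted p = 0.0377) by limma. Of these 5 genes, 4 were called higher by edgeR with TMM at 6 h, beside 46.5% of genes of at least 5 CPM, and 1 was called lower by limma, beside 24.4%. The calls of Srebf1 and Srebf2 were lost without vehicle 6 h replicate 1 or 2 or dDAVP 6 h replicate 1 or 2 (adjusted p 0.0584 to 0.139 and 0.0589 to 0.143), and that of Insig1 without any 1 of the 6 libraries (adjusted p 0.0602 to 0.313). Fitted to genes of at least 5 CPM only, edgeR with TMM called Srebf1 (0.21, adjusted p = 0.0272) and Srebf2 (0.18, adjusted p = 0.0326). It did not call Insig1 (0.04, adjusted p = 0.677), Insig2 (0.11, adjusted p = 0.322) or Scap (-0.03, adjusted p = 0.834).

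Abca1 was the 1 member called lower by edgeR at 6 h, at a level close to none. It had 0.0907, 0.137 and 0.054 TPM with vehicle and 0.0213, 0.0112 and 0.0254 TPM with dDAVP, a log2 fold change of -1.42 ± 0.438 (adjusted p = 0.0227). The call was lost in 7 of 15 alternatives, among them the fits without vehicle 6 h replicate 1 or 2 and without dDAVP 6 h replicate 1 or 2 (adjusted p 0.0718, 0.0815, 0.0882 and 0.136), and with the receptor share as covariate the value was -0.36 (adjusted p = 0.965). Stard4, which carries sterol through the cytosol, was not called in any single-time comparison by edgeR with TMM.

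Among the fatty acid genes, Fasn, the synthase itself, had 29, 29.7 and 29.1 TPM with vehicle and 25.1, 26 and 23.7 TPM with dDAVP at 3 h, without overlap. Its log2 fold change there was -0.22 by limma (adjusted p = 0.133) and 0.12 ± 0.128 by edgeR (adjusted p = 0.556). At 6 h it had 26.4, 24.1 and 24.1 against 24.3, 21.5 and 21.9 TPM, at -0.14 (adjusted p = 0.124) by limma and 0.39 ± 0.128 (adjusted p = 0.0262) by edgeR. The related desaturase genes Scd1 and Scd2 lie near each other on chromosome 19. Reads may be split between them, but their sequences were not compared and this was not tested. At 6 h Scd1 had 6.64, 6 and 6.46 TPM with vehicle and 6.39, 5.12 and 4.68 TPM with dDAVP. Scd2 had 91, 88.1 and 85.4 against 92.5, 78.2 and 75.4 TPM, and each pair of groups overlapped. By edgeR with TMM these were 0.33 ± 0.126 (adjusted p = 0.0456) and 0.42 ± 0.139 (adjusted p = 0.0275), and by limma -0.21 (adjusted p = 0.101) and -0.11 (adjusted p = 0.315). The 6 h calls of Fasn, Scd1 and Scd2 by edgeR were each lost without any 1 of the 6 libraries (adjusted p 0.0728 to 0.181, 0.0558 to 0.362 and 0.0534 to 0.194). They were also lost when edgeR with TMM was fitted to genes of at least 5 CPM only. The values there were 0.09 (adjusted p = 0.324), 0.02 (adjusted p = 0.904) and 0.11 (adjusted p = 0.234).

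At 12 h 0 of 33 members were called by edgeR with TMM, beside 0.0773% of genes tested, with 3 at an unadjusted p under 0.05 (Soat1, Idh1 and Elovl6). DESeq2 also called 0, limma on log2(TPM + 1) called Idh1 (beside 0.175% of genes of at least 5 CPM), and edgeR with the receptor share called Soat1 and Idh1 (beside 0.602%). Leaving out vehicle 12 h replicate 2 gave 1 call. At 24 h 1 member was called (Soat1), beside 0.0841% of genes tested, and leaving out any 1 of the 6 libraries left 0. The members' median log2 fold change was 0.14 at 12 h and 0.07 at 24 h, beside 0.07 and 0.00 over genes of at least 5 CPM. Fitted to genes of at least 5 CPM only, edgeR with TMM called Soat1 and Idh1 at both times. Over all its 13123 genes that fit called 93 at 12 h and 97 at 24 h.

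Averaged over the 4 times, 28 members were called higher and 0 lower by edgeR with TMM, beside 37.3% of genes of at least 5 CPM called higher and 12.5% lower. The members' median was 0.22 beside 0.14 over those genes. On log2(TPM + 1), 3 were called higher (Soat1 at 0.71, Idh1 at 0.41 and Elovl6 at 0.14) and 4 lower (Acaca at -0.23, Scap at -0.18, Insig2 at -0.16 and Fasn at -0.12), where 1.19% of genes of at least 5 CPM were called higher and 35.7% lower. With the receptor share as an edgeR covariate 3 were called, beside 2.48% of genes of at least 5 CPM. They were Soat1 at 0.87 ± 0.0556 (adjusted p = 3.21e-11), Idh1 at 0.53 ± 0.0447 (adjusted p = 6.45e-09) and Elovl6 at 0.25 ± 0.0445 (adjusted p = 0.00158). The 28 calls came down to between 3 and 5 without vehicle 24 h replicate 3 (3 calls), dDAVP 3 h replicate 3 (4), dDAVP 6 h replicate 2 (4) or dDAVP 12 h replicate 3 (5). They came down to between 9 and 18 without dDAVP replicate 2 of 3, 12 or 24 h, dDAVP replicate 1 of 6, 12 or 24 h, vehicle replicate 1 of 3 or 12 h, vehicle 6 h replicate 2 or 3, or vehicle 12 h replicate 3. The mean effects of Soat1, 0.99 ± 0.0627, and Idh1, 0.69 ± 0.0637, kept their call in 34 of 34 alternatives.

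Mvd, the decarboxylase at the end of the mevalonate steps, had the largest mean effect among the sterol enzymes by edgeR with TMM, 0.28 ± 0.0724 (adjusted p = 0.0188), kept in 25 of 34 alternatives at 0.03 to 0.35 and lost without dDAVP 3 h replicate 3, dDAVP 6 h replicate 2, dDAVP 12 h replicate 3 or vehicle 24 h replicate 3 (adjusted p 0.0503 to 0.0589). Its vehicle libraries held 16.4, 18 and 17.4 TPM at 3 h and 19, 14.5 and 16.2 at 6 h, and its dDAVP libraries 17.1, 20.1 and 17.8 and 17, 15.1 and 14.9 TPM, with overlap at both times. At 12 and 24 h vehicle spanned 12.2 to 15.6 TPM and dDAVP 14.2 to 14.8 TPM. Leaving out any 1 of the same 4 libraries also ended the mean call of Srebf2 (0.23, adjusted p = 0.0194, limma -0.03) and of Cyp51 (0.25, adjusted p = 0.0185, limma -0.01), and leaving out vehicle 24 h replicate 3 that of Srebf1 (0.27, adjusted p = 0.014, limma 0.04). For Hmgcs1 (0.18, adjusted p = 0.0395, limma -0.10) and Sqle (0.17, adjusted p = 0.0464, limma -0.07), leaving out any 1 of 20 of the 24 libraries ended it. None of the mevalonate enzymes was called for a dependence on time.

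In vehicle cells, 4 of the 7 mevalonate enzymes and 6 of the 11 that follow were called lower at 24 h than at 3 h by limma on log2(TPM + 1), beside 32.1% of genes of at least 5 CPM. By edgeR with TMM 0 of them were called lower and 1 and 2 higher, beside 40.6% of genes. Fitted to genes of at least 5 CPM only, edgeR with TMM called 3 enzymes lower. They were Idi1 (-0.40, adjusted p = 0.00392), Msmo1 (-0.21, adjusted p = 0.0274) and Sqle (-0.17, adjusted p = 0.037). That fit called Pmvk higher (0.23, adjusted p = 0.0409), and over all its 13123 genes it called 2190 higher and 2677 lower. Idi1, the isomerase of isopentenyl diphosphate, went from 49, 45.6 and 44.1 TPM at 3 h to 28.7, 30.1 and 33.8 TPM at 24 h, without overlap (46.2 ± 2.47 against 30.9 ± 2.61 TPM, SD, n = 3). It was chosen after its values were seen. Its log2 fold change was -0.57 by limma on log2(TPM + 1) (adjusted p = 0.00474), -0.13 ± 0.138 by edgeR with TMM (adjusted p = 0.426) and -0.45 ± 0.118 with the receptor share as covariate (adjusted p = 0.076). Sqle went from 46, 48.2 and 47 to 35.5, 36.8 and 39 TPM, at -0.34 by limma (adjusted p = 0.00882) and 0.10 ± 0.13 by edgeR (adjusted p = 0.527). Insig1 went from 26.8, 26.1 and 25.8 to 20.7, 20.8 and 22.4 TPM, at -0.29 (adjusted p = 0.015) and 0.15 ± 0.129 (adjusted p = 0.312). Both were without overlap.

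By limma 18 of 33 members were called lower and 0 higher over this interval, beside 32.1% of genes of at least 5 CPM called lower and 2.09% higher, with a members' median of -0.23 against -0.17. By edgeR with TMM the count was 6 higher and 1 lower, beside 40.6% and 13.9%, and the median 0.19 against 0.29. The direction thus depended on the analysis. The mean receptor share was 0.629% at 3 h and 0.226% at 24 h in vehicle. Over the same interval the summed fibroblast markers went from 2.72 to 7.72 TPM to 0.689 to 1.31 TPM, the adipocyte markers from 1.65 to 4.57 TPM to 0.748 to 1.56 TPM, and the hepatocyte markers from 1.67 to 4.05 TPM to 0.508 to 1.36 TPM. The part of these in the members' values was not tested. Relative to the median of genes of at least 5 CPM, 10 members lay above it by edgeR with TMM, 7 by limma, 6 with the receptor share as covariate and 9 with plain library totals. The edgeR count was 1 without vehicle 3 h replicate 1, 4 without its replicate 2, 12 without its replicate 3, and 2 without vehicle 24 h replicate 1 or 2.

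Srebf1 had 32.3, 28.5 and 33.2 TPM at 3 h and 32.4, 30.2 and 35.2 TPM at 24 h in vehicle. Its log2 fold change was 0.68 ± 0.127 by edgeR with TMM (adjusted p = 0.00196), 0.32 ± 0.0785 with the receptor share as covariate (adjusted p = 0.0489) and 0.06 by limma (adjusted p = 0.54), above the median of genes of at least 5 CPM in each. Scd2 had 99.9, 97.8 and 95.6 TPM at 3 h and 110, 101 and 112 TPM at 24 h, at 0.59 ± 0.139 by edgeR (adjusted p = 0.00743) and 0.14 by limma (adjusted p = 0.21). Without vehicle 3 h replicate 1 the Scd2 call was lost (adjusted p = 0.0741). Set against the 18 sterol enzymes of the same library, Srebf1 stood in vehicle at 0.21 ± 0.13 (3 h), 0.11 ± 0.11 (6 h), 0.65 ± 0.11 (12 h) and 0.52 ± 0.08 (24 h; log2, SD, n = 3). It stood at 0.30 ± 0.09, 0.41 ± 0.03, 0.73 ± 0.02 and 0.45 ± 0.05 with dDAVP. Scd2 stood at 1.86 ± 0.01, 1.82 ± 0.03, 2.29 ± 0.05 and 2.25 ± 0.09 in vehicle and at 1.90 ± 0.05, 1.88 ± 0.06, 2.38 ± 0.07 and 2.26 ± 0.20 with dDAVP. Both were thus higher relative to the enzymes at 12 and 24 h than at 3 h, whether dDAVP was present or not.

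The 4 other genes called higher by edgeR with TMM over this interval in vehicle were Pmvk, Insig2, Dhcr7 and Ebp. Ebp, the sterol isomerase, had 24, 19.8 and 21.4 TPM at 3 h and 18.9, 18.8 and 17.5 TPM at 24 h, lower in all later libraries. It was called in opposite directions, at 0.37 ± 0.139 by edgeR with TMM (adjusted p = 0.0403) and -0.23 by limma (adjusted p = 0.0406), and was -0.06 with the receptor share as covariate (adjusted p = 0.917). Pmvk, the second mevalonate kinase, had 30.5, 33.4 and 28.4 TPM at 3 h and 29.8, 28.8 and 32.3 at 24 h, Insig2 13.8, 14.2 and 12.7 and then 12, 14 and 12.7, and Dhcr7, the last reductase of the route, 11.8, 9.32 and 7.06 and then 6.73, 8.55 and 7.94 TPM, each with overlap. Their edgeR values were 0.49 ± 0.145 (adjusted p = 0.0163), 0.48 ± 0.139 (adjusted p = 0.0161) and 0.30 ± 0.105 (adjusted p = 0.0338), and their limma values -0.02, -0.07 and -0.23. The calls of Pmvk and Insig2 were lost without vehicle 3 h replicate 1 or vehicle 24 h replicate 1 or 2 (adjusted p 0.0585 to 0.12 and 0.0697 to 0.126). That of Dhcr7 was lost without any 1 of the 6 libraries (adjusted p 0.0515 to 0.165). Abca1 was called lower, at -1.15 ± 0.421 (adjusted p = 0.0364), from 0.157, 0.0789 and 0.054 to 0.144, 0.0349 and 0.0369 TPM. Of 15 alternatives 11 lost the call, including the fits without vehicle 3 h replicate 1 or 2 or vehicle 24 h replicate 1 or 2 (adjusted p 0.0592 to 0.244). With dDAVP present, Soat1 was the 1 member called between 3 and 24 h by edgeR with TMM, beside 1.3% of genes tested.

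**Figure D4:**
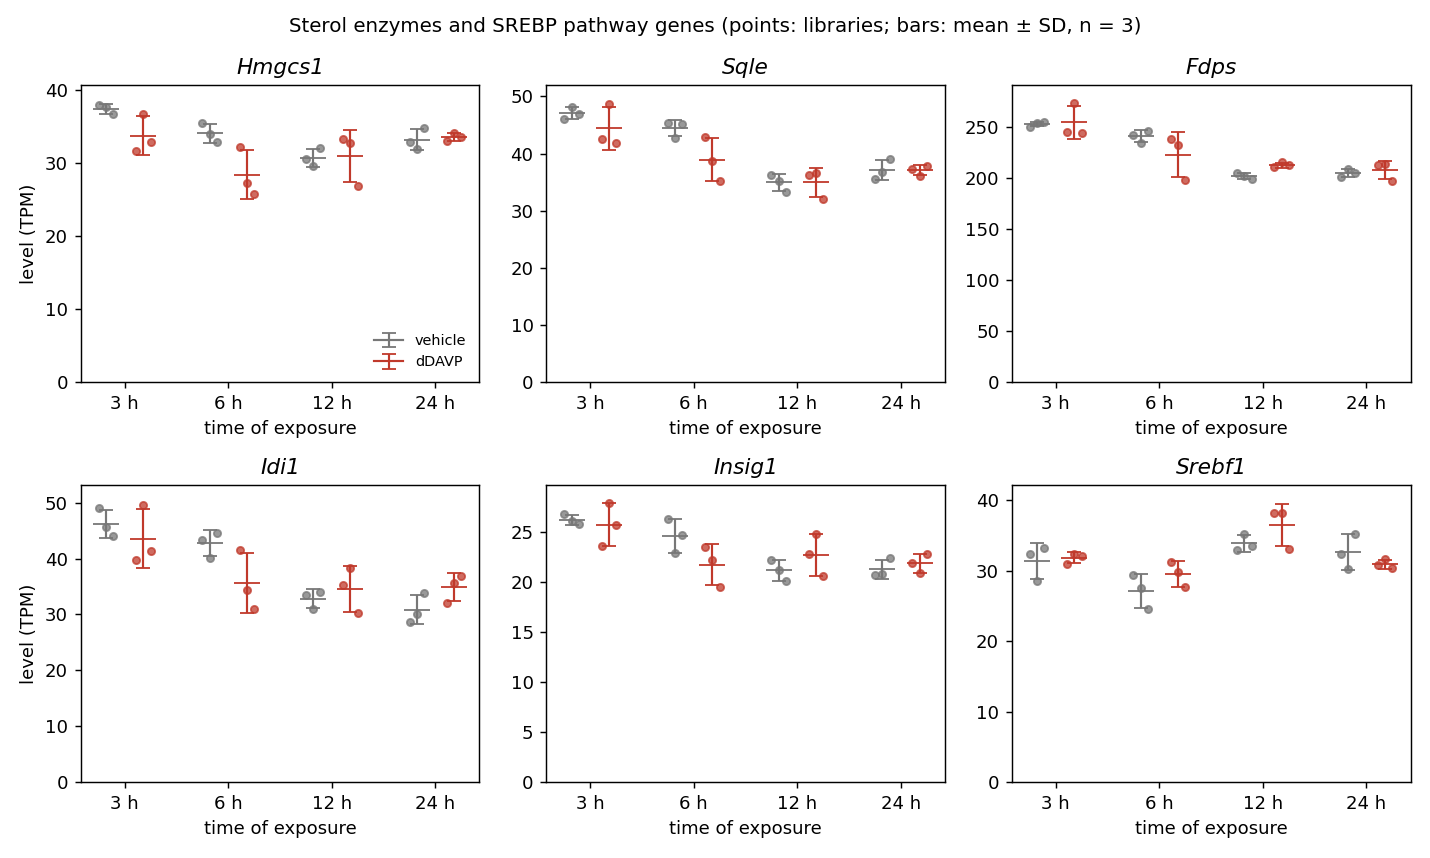
Levels in TPM (vertical axes, from 0) of Hmgcs1, Sqle, Fdps, Idi1, Insig1 and Srebf1 by time of exposure, 1 point for each library, with the mean and SD of the 3 libraries of each group. The vehicle libraries of Idi1 come down from 44.1 to 49 TPM at 3 h to 28.7 to 33.8 TPM at 24 h. Its log2 fold change is -0.57 by limma on log2(TPM + 1) and -0.13 by edgeR with TMM. Fitted to genes of at least 5 CPM only, edgeR with TMM gives -0.40. Vehicle and dDAVP libraries overlap in most panels.

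A further 42 genes of the pathway that are not among the 33 were counted for comparison. At 6 h edgeR with TMM called 25 higher and 2 lower (median 0.34), beside 46.5% and 12.5% of genes of at least 5 CPM, limma called 0 higher and 5 lower (median -0.15), beside 0.556% and 24.4%, and edgeR with the receptor share called 0. In the mean effect edgeR with TMM called 20 higher and 0 lower, beside 37.3% and 12.5%, and limma 1 higher and 11 lower, beside 1.19% and 35.7%. At 3 h edgeR with TMM called 1 (Fads2), and 0 at 12 and 24 h. Fads2, a desaturase of polyunsaturated fatty acids, had 89.2 ± 3.51 TPM with vehicle and 108 ± 4.1 TPM with dDAVP at 3 h (SD, n = 3) and a mean effect of 0.46 ± 0.0685 by edgeR (adjusted p = 0.000117) and 0.21 by limma (adjusted p = 0.0031). It was higher with dDAVP at 6, 12 and 24 h as well, at group means of 91.2, 89.2 and 94.6 TPM against 80.5, 76.3 and 84.4 TPM. Limma did not call Fads2 at 3 h (0.28, adjusted p = 0.096) or at 6 h (0.18, adjusted p = 0.0691). By edgeR at 3 h, Fads2 was not called with RLE size factors (adjusted p = 0.387) but was with the receptor share as covariate (adjusted p = 0.00106). Its partner desaturase Fads1 and the acyl-CoA synthetase Acsl4 had mean effects of 0.35 ± 0.0632 (adjusted p = 0.00144) and 0.41 ± 0.0714 (adjusted p = 0.00102) by edgeR, and 0.09 (adjusted p = 0.0794) and 0.11 (adjusted p = 0.184) by limma.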

How the data were processed

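Total RNA was extracted, turned into cDNA with the SMART-Seq HT kit and made into libraries by a Nextera protocol, per the labels' protocols. The authors deposited estimated counts per Ensembl gene, without normalization, and TPM per gene, scaled to a fixed total in each library. Per the submitters' processing notes, Salmon 0.14.10 was used with GRCm38.p6. How transcripts were summed to genes is not given in the sources used here.

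Gene names came from GENCODE M21 by identifier (54346 with a symbol, 86 without). Estimated counts were rounded and analysed with edgeR 4.0.16 in R 4.3.3: filterByExpr over the 8 groups (29743 genes), TMM (factors 0.814 to 1.326), 1 mean per group over all 24 libraries, and the quasi-likelihood F test with Benjamini-Hochberg adjustment over all genes tested and a threshold of 0.05. Adjusted p-values in the text are from this test unless limma 3.58.1 on log2(TPM + 1), another tool or another model is named. The scripts were tested on simulated data, in which a set of genes was changed and the receptor share was not made to differ between groups. That test therefore does not bear on the differences between analyses at 6 h.

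The members, lists and tests were chosen with earlier results of these data known. Values in every library and tests are given for up to 6 members with the smallest p in each comparison and for Hmgcs1, Sqle, Insig1, Srebf1, Srebf2, Fasn, Scd1, Scd2 and Abca1, with other members given by ranges or named where a count is small. Alternatives were RLE size factors, DESeq2 1.42.0, no filter, a filter of 5 CPM (13123 genes), a replicate block, log2 TPM with 1 or 0.1 added, the log2 receptor share as a covariate, and each library left out. After seeing the data, plain library totals and a fit without the 2 libraries of highest receptor share (vehicle replicate 1 of 3 h and of 12 h) were added. Between replicates the chi-square per gene ran from 2.45 to 34.9, so none was counted as a duplicate. Plots used matplotlib 3.10.9 (Python 3.11.15).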

Additional observations from a re-analysis of the deposited data

Results flagged for a closer look

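The dDAVP effect on Soat1 differed between the 4 times by edgeR's quasi-likelihood test of the interaction (adjusted p = 0.0208). The log2 fold change was 1.43 at 3 h, 1.41 at 6 h, 0.46 at 12 h and 0.66 at 24 h. Over 33 alternatives the difference between 24 h and 3 h ranged from -0.89 to -0.61, and the adjusted p from 0.00136 to 0.336, with the call kept in 15. No other member was called for a dependence on time.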

How the results depend on the processing

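The calls of Soat1 at 3 h, at 6 h and in the mean effect, of Idh1 at 6 h and in the mean effect, and of Elovl6 in the mean effect kept direction and side of the threshold in all alternatives run. Counts of members called by edgeR with TMM were 2 at 3 h, 25 at 6 h, 0 at 12 h, 1 at 24 h, 28 in the mean effect, 1 for time dependence, 7 in vehicle and 1 in dDAVP between 3 and 24 h. In the same order, leaving out 1 library gave 1 to 3, 2 to 13, 0 to 1, 0 to 0, 3 to 30, 0 to 1, 1 to 12 and 0 to 1.

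Where a count moved by more than 1.5 times, RLE factors gave 1 (3 h), 11 (6 h) and 0 at 24 h, for time dependence and in dDAVP cells. DESeq2 gave 1 at 3 h, 0 at 24 h and 0 in dDAVP cells. Without a filter they were 1 at 3 h, 7 at 6 h, 0 at 24 h, 17 in the mean effect and 0 in dDAVP cells. With the 5 CPM filter they were 5 (6 h), 2 (12 h), 2 (24 h), 13 in the mean effect and 4 in dDAVP cells. On log2(TPM + 1) and log2(TPM + 0.1) they were 1 and 1 (3 h), 5 and 7 (6 h), 1 and 1 (12 h), 7 and 8 in the mean effect, 0 and 0 for time dependence, 18 and 17 in vehicle cells, and 3 and 3 in dDAVP cells. With the receptor share as covariate they were 2 (6 h), 2 (12 h), 2 (24 h), 3 in the mean effect, 1 in vehicle and 5 in dDAVP cells. Library totals gave 5 (6 h), 1 (12 h), 2 (24 h), 7 in the mean effect and 6 in dDAVP cells. Without the 2 libraries of highest receptor share they were 1 at 3 h, 2 at 24 h, 4 in the mean effect, 2 in vehicle and 3 in dDAVP cells. The cause was not tested.

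Over all same-numbered libraries of different groups, the correlation of deviations from the group mean had a median of 0.00744 (range -0.392 to 0.553). For libraries of different number the median was -0.00307. Of the 12 vehicle and dDAVP pairs of the same time and number, 4 had a correlation over 0.1. The main fit did not pair libraries by number. With a replicate block, 1 member was called at 12 h and 12 in vehicle cells, the other counts stayed within 1.5 times (3 at 3 h, 26 at 6 h, 29 in the mean effect), and 34 of 34 calls of single members were kept.

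Single members reversed on the TPM scales. At 6 h log2(TPM + 1) and log2(TPM + 0.1) gave -0.02 and -0.02 for Elovl6, -0.09 and -0.09 for Srebf2, -0.08 and -0.08 for Cyp51, -0.17 and -0.18 for Insig1, -0.14 and -0.14 for Fasn, -0.21 and -0.25 for Scd1, and -0.11 and -0.11 for Scd2. In the mean effect they gave -0.01 and -0.01 for Cyp51, -0.10 and -0.10 for Hmgcs1, -0.07 and -0.07 for Sqle, -0.02 and -0.02 for Insig1, -0.03 and -0.03 for Srebf2, -0.04 and -0.05 for Scd1, and -0.0033 and -0.0035 for Scd2. In vehicle cells they gave -0.07 and -0.07 for Insig2, -0.02 and -0.02 for Pmvk, and -0.23 and -0.25 for Dhcr7. Library totals reversed Insig1 (-0.02) and Scd1 (-0.04) at 6 h, Sqle in the mean effect (-0.002) and Dhcr7 in vehicle cells (-0.02), and the receptor share reversed Insig1 at 6 h (-0.04). The low level of Abca1 limits what its fold changes show.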
